A study of Saccharomyces cerevisiae with 8 samples.

Results

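The enzymes of glycolysis and alcoholic fermentation in the budding yeast Saccharomyces cerevisiae, with the kinases and phosphatases that steer the pathway, its gluconeogenic and glycerol branches and its transcriptional regulators, were followed as a list of 39 genes taken by name from the annotation of coding transcripts. Of these, 36 genes had a transcript of their own in the count table, and because PCK1 is split into 2 rows they gave 37 of the 5171 annotated coding transcripts. HXK1, GLK1 and GCR2 share their transcript with a neighbouring open reading frame (YFR052C-A, YCL042W and YNL198C), so they are given separately as shared transcripts and are not in the counts of members. RNA was sequenced from 2 pools of haploid spores (spore pools A and B) of the S96 x SK1 cross and from 2 cultures of the diploid hybrid of that cross (hybrids A and B), all in YPD, a rich medium with glucose. S96 is a laboratory strain isogenic to the S288c reference apart from mating type, and SK1 is a wild isolate. Each spore carries a single allele of a gene, whereas the hybrid holds the S96 and the SK1 allele in the same nucleus. The pools had grown overnight and had been selected for a single mating type, so ploidy, mating type and growth history cannot be told apart between pools and hybrids. A pool is a mixture of many genotypes, and in bulk RNA fewer cells expressing a gene cannot be told apart from less RNA per cell.

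Glycolysis turns glucose into pyruvate through a chain of abundant enzymes, and S. cerevisiae ferments that pyruvate to ethanol even in the presence of oxygen as long as glucose is plentiful. Many steps are encoded by paralogues, of which usually a single major isoenzyme is made at a high level during growth on glucose while minor isoenzymes are made on poor carbon sources or under stress. The major genes are driven by the activator Gcr1 together with its partner Gcr2 and the DNA-binding protein Rap1.

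Only read pairs that match a single parental genome were counted, so a level depends on where the strains differ. A level below is the number of such pairs, SK1 and S96 summed, per kilobase of annotated transcript, scaled to a common library size of 1e+06 pairs. Annotated transcripts received 52182840 and 52572032 pairs in spore pools A and B and 45279970 and 48120351 pairs in hybrids A and B, with between 49.9% and 50.2% of them from SK1. Pairs outside annotated transcripts were 26.8% to 36.4% of the allele-specific pairs, with the replicates A above the replicates B in both groups. The library labels were checked on mating genes. All 5 haploid-specific genes tested and 5 of 6 genes of mating type a were called higher in the pools, against 0 of 4 genes of mating type alpha and 0 of 4 genes of meiosis. The study calls A and B biological replicates, and the labels do not say how the cultures were separated, so a p-value measures only the spread between these 2 libraries per group.

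The members took 4.37% and 4.77% of all annotated pairs in spore pools A and B and 4.33% and 4.27% in hybrids A and B. TDH3, the major glyceraldehyde-3-phosphate dehydrogenase (GAPDH), was the highest member with a level of 12959 and 14200 in spore pools A and B and 13910 and 12747 in hybrids A and B. PDC1, the major pyruvate decarboxylase, followed with 5899 and 8782 in the pools and 7515 and 7788 in the hybrids. FBA1, which encodes the aldolase that splits the hexose, stood at 3082 and 4085 in the pools and 3396 and 3275 in the hybrids. For all of these genes the pools and the hybrids overlapped. Among the 5059 coding transcripts tested, TDH3 stood at the 99.9th percentile of the mean level, PDC1 at the 99.7th and FBA1 at the 99.3rd. At the other end, PDC6, a minor pyruvate decarboxylase, had 24 and 20 pairs in all in spore pools A and B and 3 and 68 in hybrids A and B, and stood at the 0.18th percentile. As listed, the annotated transcripts of FBA1, of PDC6 and both of PCK1 do not hold the whole R64 coding region of their gene. The annotation names no genome build, and FBA1 and PCK1 both lie on chromosome XI. Whether these levels cover only part of the gene or the coordinates differ between builds was not tested. Levels between genes also depend on how many SNPs fall in a transcript, which ranged from 1 in TDH2, GPM1, ENO2 and CDC19 to 26 in PDC2, with a median of 3.94 per kilobase over the members and 4.88 over all tested coding transcripts.

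**Figure D1:**
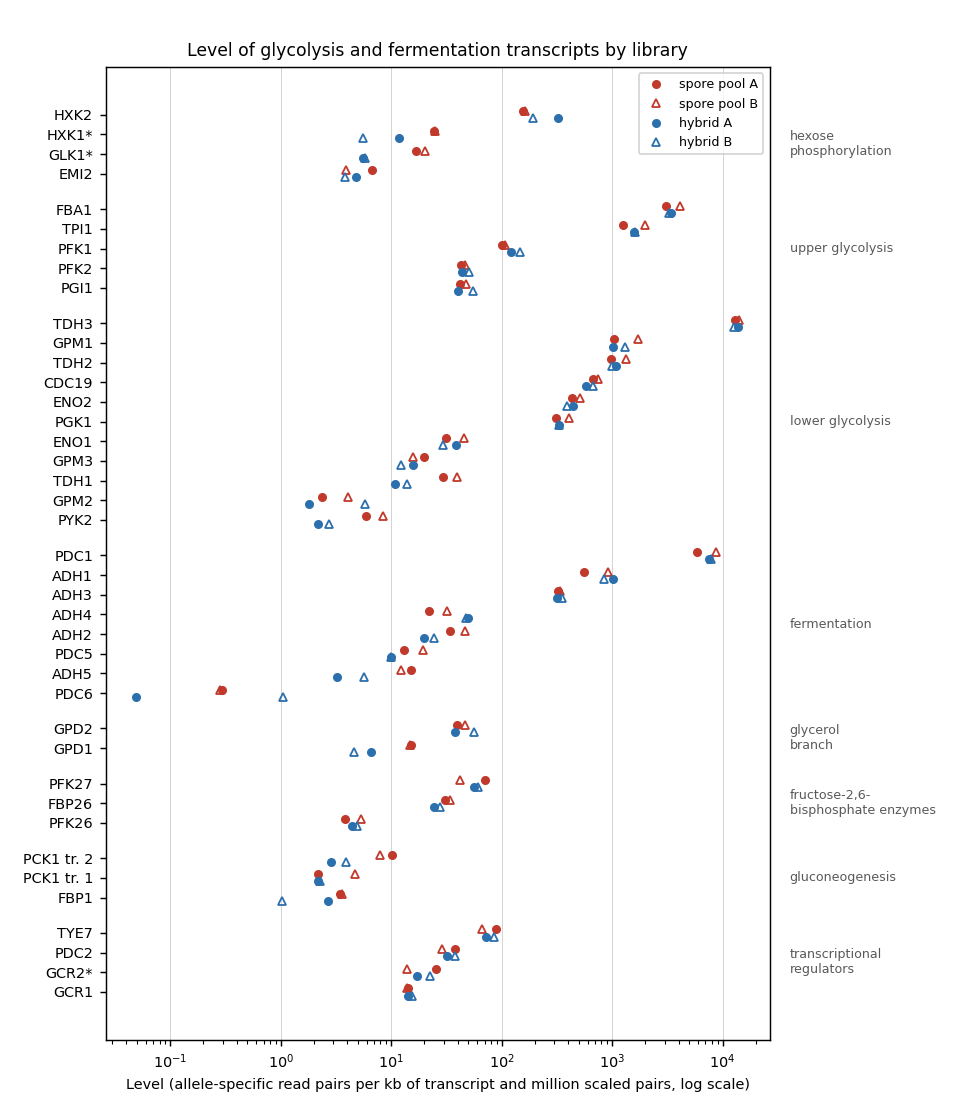
Level of every member transcript in spore pools A and B and hybrids A and B, as allele-specific read pairs per kilobase and 1e+06 scaled pairs on a log axis, ordered by role, with an asterisk for the shared transcripts. Pools and hybrids overlap for TDH3, PDC1 and FBA1, with TDH3 between 12747 and 14200, and the libraries spread for minor isoenzymes such as PDC6.

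The first comparison asked how total expression of the pathway differed between spore pools and hybrids. It was tested with edgeR's quasi-likelihood test over all 6705 transcripts that passed the filter on low counts, 37 member transcripts among them, and a call needed a Benjamini-Hochberg false discovery rate (FDR) under 0.2 and a fold above 1.5. A single member was called, TDH1 (higher in the pools), against 1.13% of all tested transcripts. The count depends on the libraries kept, with 8 members called without spore pool A, 7 without spore pool B and 0 without hybrid A or without hybrid B. DESeq2 without a prior called PYK2, ADH4, ADH5 and GPD1 as well. The median log2 ratio of pools over hybrids was 0.10 over the members and 0.01 over all tested transcripts, and the median absolute log2 ratio was 0.24 against 0.27. An unadjusted p under 0.05 was found for 8 members, compared with 8.13% of all tested transcripts. More than 1.5-fold higher in the pools were 9 member transcripts (FBP1, TDH1, PYK2, PDC5, ADH2, ADH5, GPD1 and both of PCK1), 3 were more than 1.5-fold lower (HXK2, ADH4 and PDC6) and 25 lay within 1.5-fold. Of all tested transcripts 12.7% were more than 1.5-fold higher and 7.03% more than 1.5-fold lower. For 11 members both pools lay above both hybrids (18.3% of all tested transcripts did), and for 3 members, HXK2, PFK1 and ADH4, both pools lay below both hybrids (18.3% of all). With lanes 6 and 7 only, 10 members lay above (18.6% of all). GPM3, PYK2, PDC5 and ADH2 dropped out there, and PFK26, TDH2 and PDC6 came in. With lane 8 only, 9 lay above (18.4% of all). FBP1, GPM3 and CDC19 dropped out there, TDH3 came in, and HXK2 was no longer below. FBP26, TDH1, ADH5, GPD1 and the second PCK1 transcript lay above, and PFK1 and ADH4 below, in each setting of lanes and size factors.

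**Figure D2:**
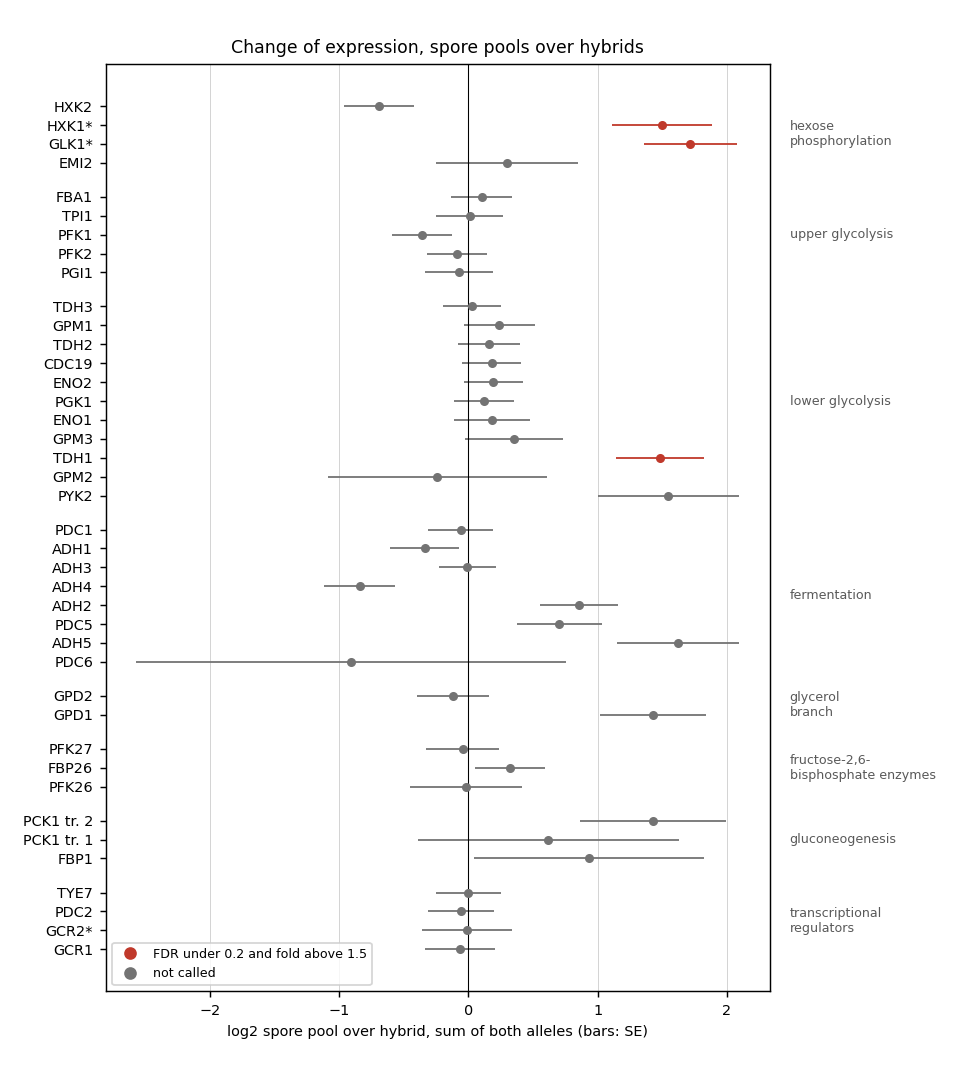
Log2 ratio of spore pools over hybrids for every member transcript with its standard error, ordered by role, with an asterisk for the shared transcripts and called transcripts marked. TDH1 at 1.48 and the shared transcripts of HXK1 at 1.50 and GLK1 at 1.72 are called. TDH3 at 0.03, PDC1 at -0.06 and FBA1 at 0.10 sit close to 0, whereas HXK2 is at -0.69 and ADH1 at -0.34.

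Glucose enters the pathway through hexokinases. HXK2 (chromosome VII, 23897 to 25601, plus strand), the hexokinase of growth on glucose that also acts in glucose repression, had a level of 155 and 162 in spore pools A and B and 323 and 190 in hybrids A and B. Both pools were lower than both hybrids and hybrid A stood apart from the other libraries, and the log2 ratio of -0.69 (standard error 0.27) had an FDR of 0.501. Over the alternative settings the log2 ratio of HXK2 ranged from -1.84 to -0.16. With lane 8 alone the pools were not both below both hybrids, whereas lanes 6 and 7 alone called HXK2 lower. The shared transcript of HXK1 (chromosome VI, 253437 to 255141, minus strand), a hexokinase made when glucose is low, had a level of 24.6 and 24.9 in the pools and 11.9 and 5.61 in the hybrids. That of GLK1 (chromosome III, 50793 to 52537, plus strand), a glucokinase that does not phosphorylate fructose, had 16.9 and 20.4 in the pools and 5.58 and 5.76 in the hybrids. Both shared transcripts rose in the pools without overlap between the groups, by 1.50 for HXK1 (standard error 0.39, FDR 0.186) and 1.72 for GLK1 (standard error 0.36, FDR 0.0613) on the log2 scale. HXK1 was not called without hybrid B (1.06, FDR 1), and GLK1 was called neither without hybrid A (1.69, FDR 0.322) nor without hybrid B (1.74, FDR 0.383). With lane 8 alone neither was called (1.19, FDR 0.528 for HXK1 and 1.63, FDR 0.264 for GLK1), and HXK1 was also lost with upper-quartile size factors (FDR 0.250), with no filter on low counts (FDR 0.211) and, like GLK1, at an FDR under 0.05. The shorter SUT026 overlaps the GLK1 transcript on the same strand. EMI2, a paralogue of GLK1, had 6.68 and 3.91 in the pools and 4.78 and 3.82 in the hybrids, which overlap.

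In upper glycolysis no member was called. PGI1, the phosphoglucose isomerase, had a level of 42.3 and 47.6 in spore pools A and B and 39.9 and 54.7 in hybrids A and B. Of the subunits of phosphofructokinase, the enzyme of the committed step, PFK1 (alpha subunit) had 100.2 and 108 in the pools and 120.5 and 147 in the hybrids, and PFK2 (beta subunit) had 43.1 and 46.4 in the pools and 43.9 and 51.1 in the hybrids. The pools lay below the hybrids for PFK1, with a log2 ratio of -0.36 (FDR 0.788), and overlapped them for PGI1 and for PFK2, whose log2 ratio was -0.09. TPI1, the triose phosphate isomerase, had 1245 and 1976 in the pools and 1585 and 1613 in the hybrids, so that the pools lay on either side of the hybrids.

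The called member encodes the minor GAPDH, the enzyme that opens lower glycolysis. TDH1 (YJL052W, chromosome X, 338192 to 339392, plus strand), the isoenzyme known from stressed and non-growing cells, rose to a level of 29.2 and 39.5 in spore pools A and B, against 10.8 and 13.8 in hybrids A and B. These levels rest on 2044 and 2379 pairs in the pools and 569 and 775 in the hybrids. The log2 ratio was 1.48 (standard error 0.34), a fold of 2.79, with an FDR of 0.107 in edgeR's quasi-likelihood test. Without hybrid A the log2 ratio was 1.32 with an FDR of 0.661, without hybrid B it was 1.67 with an FDR of 0.369, and it was called without spore pool A (FDR 2.9e-04) and without spore pool B (FDR 0.0272). TDH2, the intermediate GAPDH, had 984 and 1346 in the pools and 1088 and 998 in the hybrids, a log2 ratio of 0.16, and TDH3 had a log2 ratio of 0.03. The shorter CUT210 overlaps TDH1 on the same strand, and pairs that lay within both cannot be told apart.

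The coding sequences of the GAPDH genes are close copies, which bears on how pairs are assigned to them. TDH2 and TDH3 are 95.8% identical over 999 coding bases, TDH1 and TDH2 90.2% and TDH1 and TDH3 88.9%. Of the 100-base windows of the coding sequence, the length of a read, 8.22% are shared by TDH2 and TDH3, 4.56% by TDH1 and TDH2 and none by TDH1 and TDH3. The first 90 coding bases are shown from the R64 reference, with capitals at the 17 positions where the copies differ, for TDH1 at chrX:338271-338360 (plus strand), TDH2 at chrX:454592-454681 (minus strand) and TDH3 at chrVII:883721-883810 (minus strand).
TDH1: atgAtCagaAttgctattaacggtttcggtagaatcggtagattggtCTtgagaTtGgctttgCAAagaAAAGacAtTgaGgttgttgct
TDH2: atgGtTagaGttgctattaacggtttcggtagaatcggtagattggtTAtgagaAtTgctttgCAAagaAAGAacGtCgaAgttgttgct
TDH3: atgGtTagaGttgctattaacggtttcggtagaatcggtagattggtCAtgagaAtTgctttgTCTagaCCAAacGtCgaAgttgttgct
The differences cluster toward the end of the stretch, and a long run in its middle is the same in all copies.

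The bases upstream of the TDH1 transcript start, chrX:337971-338191 of R64 on the plus strand, hold no SNP of the files and carry a CACGTG, the E-box that basic helix-loop-helix factors such as Tye7 bind, in capitals.
TDH1 upstream: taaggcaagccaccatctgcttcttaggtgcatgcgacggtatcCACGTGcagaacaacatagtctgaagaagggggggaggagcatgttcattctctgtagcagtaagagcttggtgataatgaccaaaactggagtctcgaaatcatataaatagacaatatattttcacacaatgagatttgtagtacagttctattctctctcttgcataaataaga
The other member with that motif in the 300 bases before its start codon was PYK2.

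The rest of lower glycolysis was not called. PGK1, the phosphoglycerate kinase, had a level of 313 and 406 in spore pools A and B and 328 and 333 in hybrids A and B. GPM1, the phosphoglycerate mutase of glycolysis, had 1035 and 1714 in the pools and 1021 and 1304 in the hybrids. Its paralogues GPM2 and GPM3, whose role in the pathway is doubtful, had 2.37 and 4.03 (GPM2) and 20.03 and 15.7 (GPM3) in the pools and 1.79 and 5.78 (GPM2) and 15.7 and 12.3 (GPM3) in the hybrids. Spore pool B was the highest library for PGK1 and GPM1, and the groups overlapped for both. Of the enolases, ENO2 had 436 and 509 in the pools and 440 and 387 in the hybrids, and ENO1 had 31.3 and 45.9 in the pools and 38.9 and 29.2 in the hybrids. Of the pyruvate kinases, CDC19, the enzyme of fermentative growth, had 674 and 750 in the pools and 586 and 670 in the hybrids. PYK2, the pyruvate kinase of low glycolytic flux, had 5.91 and 8.52 in the pools and 2.17 and 2.76 in the hybrids. Both pools lay above both hybrids for CDC19 and PYK2, but the log2 ratio of 1.55 for PYK2 (standard error 0.55) had an FDR of 0.433.

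Pyruvate is decarboxylated and reduced to ethanol by the fermentation genes, of which 0 of 8 were called in either direction, with a median log2 ratio of -0.03. PDC5, the decarboxylase that replaces PDC1 when PDC1 is lost, had a level of 13.2 and 19.2 in spore pools A and B and 9.95 and 9.94 in hybrids A and B. ADH1, the major alcohol dehydrogenase of ethanol formation, had 554 and 916 in the pools and 1010 and 847 in the hybrids. ADH2, the isoenzyme that oxidizes ethanol and is repressed by glucose, had 33.8 and 46.3 in the pools and 20.02 and 24.2 in the hybrids, with no overlap and a log2 ratio of 0.86 that had an FDR of 0.433. Over its coding SNPs the SK1 allele made up only 26.4% and 25.6% of DNA reads in hybrids A and B. The reason was not tested. ADH3, the mitochondrial isoenzyme, had 324 and 338 in the pools and 316 and 349 in the hybrids, so the hybrids enclosed the pools. ADH4, an unrelated alcohol dehydrogenase (chromosome VII, 14625 to 16441, plus strand), had 22.2 and 32.2 in the pools and 50.1 and 47.3 in the hybrids. ADH5 had 15.0 and 12.4 in the pools and 3.21 and 5.71 in the hybrids. The groups did not overlap for ADH4 or ADH5, but the FDR was 0.399 for ADH4 (log2 ratio -0.84, standard error 0.28) and 0.278 for ADH5 (1.62, standard error 0.47).

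The gluconeogenic genes are repressed by glucose and were low. FBP1, the fructose-1,6-bisphosphatase, had a level of 3.47 and 3.59 in spore pools A and B and 2.68 and 1.022 in hybrids A and B. PCK1, the phosphoenolpyruvate carboxykinase, had 10.2 and 7.96 in the pools and 2.85 and 3.89 in the hybrids for its second transcript and 2.17 and 4.67 in the pools and 2.17 and 2.29 in the hybrids for its first. Neither gene was called, with a median log2 ratio of 0.93 over these 3 transcripts. Fructose-2,6-bisphosphate is a potent activator of phosphofructokinase. PFK26 and PFK27, whose products make it, had 3.86 and 5.37 (PFK26) and 71.1 and 42.2 (PFK27) in the pools and 4.42 and 4.93 (PFK26) and 56.2 and 60.6 (PFK27) in the hybrids. FBP26, whose product degrades it, had 30.9 and 33.9 in the pools and 24.4 and 27.5 in the hybrids, and of these 3 genes it alone had pools and hybrids that did not overlap.

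Glycerol formation drains triose phosphate through the glycerol-3-phosphate dehydrogenases. GPD1, the isoenzyme induced by osmotic stress, had a level of 15.2 and 14.9 in spore pools A and B and 6.57 and 4.66 in hybrids A and B. GPD2, the isoenzyme of redox balance without oxygen, had 39.6 and 47.0 in the pools and 38.0 and 56.1 in the hybrids. Both pools lay above both hybrids for GPD1, with a log2 ratio of 1.43 (standard error 0.41) and an FDR of 0.270. No regulator was called. GCR1 had 14.3 and 13.8 in the pools and 14.1 and 15.3 in the hybrids, TYE7 (an activator of glycolytic genes) 89.6 and 66.9 in the pools and 71.5 and 85.1 in the hybrids, and PDC2 (an activator of PDC1 and PDC5) 38.0 and 28.98 in the pools and 32.0 and 37.6 in the hybrids. The shared transcript of GCR2 had 25.3 and 13.8 in the pools and 17.03 and 22.3 in the hybrids, and the pools and hybrids overlapped for all 4 regulators.

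Of 7 markers of stationary phase and glucose exhaustion tested in the same comparison, 3 were called higher in the pools and 0 lower, with a median log2 ratio of 1.23. HSP12, a small heat shock protein of the membrane, had a level of 178 and 208 in spore pools A and B and 30.1 and 26.4 in hybrids A and B (log2 ratio 2.77, FDR 2.3e-04). SPI1, a cell wall protein of stationary cells, had 42.2 and 49.2 in the pools and 5.78 and 12.9 in the hybrids, and the chaperone HSP26 had 34.0 and 44.3 in the pools and 16.1 and 14.01 in the hybrids. Of these calls only that of HSP12 was kept without each library in turn, as SPI1 was not called without hybrid A (FDR 0.287) nor HSP26 without hybrid A (FDR 0.544) or hybrid B (FDR 1). The other 4 markers were not called. The catalase CTT1 had 18.3 and 20.3 in the pools and 8.95 and 10.1 in the hybrids (FDR 0.399), and GRE1 4.48 and 5.16 in the pools and 1.60 and 2.50 in the hybrids (FDR 0.871). CYC7, a cytochrome c isoform, had 14.07 and 26.9 in the pools and 20.1 and 17.2 in the hybrids (FDR 0.9803), and the hexose transporter HXT5 2.99 and 1.86 in the pools and 4.36 and 2.07 in the hybrids (FDR 0.947), so these 2 overlapped. The summed level of the list was 294 and 356 in the pools and 87.0 and 85.2 in the hybrids, and 116 and 148 in the pools and 56.9 and 58.8 in the hybrids without HSP12. TDH1 and the shared transcripts of HXK1 and GLK1 were higher in the same libraries, and the part of growth state in their change was not tested. Among genes next to the pathway, 0 of 9 glyoxylate and gluconeogenesis transcripts were called (median log2 ratio 0.94), with isocitrate lyase ICL1 at 12.1 and 10.4 in the pools and 5.64 and 4.17 in the hybrids. MDH2, the most abundant of that list, was lower in the pools, with 146 and 207 against 222 and 268 in the hybrids. The summed level of the list was 177 and 245 in the pools and 236 and 282 in the hybrids. Of the pyruvate and acetate transcripts 0 of 11 were called (median 0.19). Of 4 other glycerol genes tested, HOR2, a glycerol-3-phosphatase, rose to 73.7 and 84.6 in the pools, against 31.2 and 32.8 in the hybrids, with a log2 ratio of 1.31 (standard error 0.27) and an FDR of 0.0566. It was not called without hybrid A (1.27, FDR 0.556) or without hybrid B (1.34, FDR 0.574).

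Within each family a single paralogue gave most of the summed level per kilobase, and the same gene led in both groups. TDH3 gave 92.7% and 91.1% of the GAPDH level in spore pools A and B and 92.7% and 92.6% in hybrids A and B. GPM1 gave 97.9% and 98.9% of the phosphoglycerate mutases in the pools and 98.3% and 98.6% in the hybrids, and PDC1, CDC19 and ENO2 gave 99.8%, 99.0% and 92.5% of their families on average in the pools and 99.9%, 99.6% and 92.4% in the hybrids. The level of the alcohol dehydrogenases was divided, with ADH1 at 58.4% and 68.1% in the pools and 72.2% and 66.5% in the hybrids and ADH3 at 34.2% and 25.1% in the pools and 22.6% and 27.4% in the hybrids. The leading gene of each of the 11 families was also the same when levels were taken per SNP or from either allele alone, but the shares themselves moved. Taken per SNP, ADH1 averaged 82.8% in the pools and 86.1% in the hybrids, and TDH2 averaged 25.6% of GAPDH in the pools and 24.1% in the hybrids.

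Some minor paralogues took a larger share in the pools, and others did not. HXK2 gave 76.3% and 76.7% of the hexokinase level in spore pools A and B and 93.6% and 92.6% in hybrids A and B, with the shared transcripts of HXK1 at 12.1% and 11.8% in the pools and 3.44% and 2.73% in the hybrids and of GLK1 at 8.30% and 9.66% in the pools and 1.62% and 2.80% in the hybrids. TDH1 gave 0.209% and 0.253% of GAPDH in the pools and 0.072% and 0.100% in the hybrids. PYK2 gave 0.870% and 1.12% of pyruvate kinase in the pools and 0.369% and 0.410% in the hybrids. In all of these the 2 pools were apart from the 2 hybrids, and TDH1 and PYK2 reached at most 0.253% and 1.12% of their families. GPD1 gave 27.8% and 24.1% of the glycerol-3-phosphate dehydrogenases in the pools and 14.7% and 7.66% in the hybrids. With 2 libraries against 2 these shares have no test of their own. Taken per SNP they averaged 1.96% in the pools and 0.436% in the hybrids for HXK1, 2.84% in the pools and 0.599% in the hybrids for GLK1, 0.108% in the pools and 0.041% in the hybrids for TDH1 and 0.086% in the pools and 0.034% in the hybrids for PYK2, lower than per kilobase but in the same order of groups. Reads that cannot be assigned between close copies also enter them, since ADH1 and ADH2 share 9.49% and ENO1 and ENO2 2.72% of their 100-base windows. Per kilobase, ENO1 averaged 7.49% of the enolases in the pools and 7.57% in the hybrids. ADH4 gave 2.34% and 2.39% of the alcohol dehydrogenases in spore pools A and B, against 3.58% and 3.71% in hybrids A and B. In that family ADH2 and ADH5 averaged 3.50% and 1.25% in the pools and 1.67% and 0.339% in the hybrids.

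**Figure D3:**
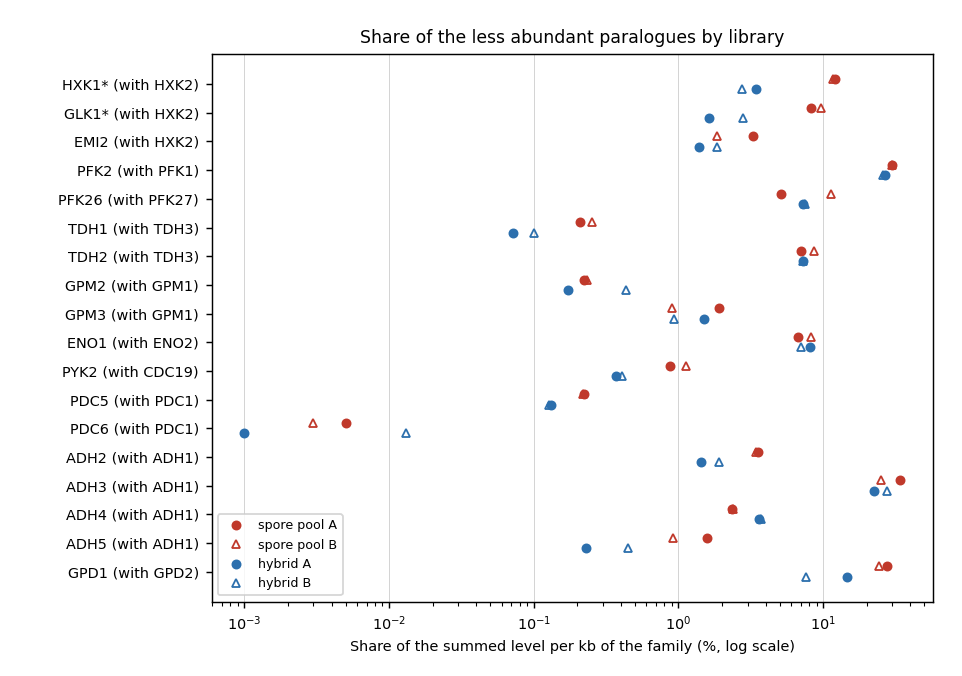
Share of the less abundant paralogues in the summed level per kilobase of their family, in percent on a log axis, for spore pools A and B and hybrids A and B. The leading gene of each family and the pair of PFK26 with FBP26 are not shown, and an asterisk marks the shared transcripts. HXK1 stands at 12.1% and 11.8% in the spore pools and 3.44% and 2.73% in the hybrids, while TDH1 reaches at most 0.253% in any library.

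The second comparison asked whether the SK1 and the S96 allele of a gene are expressed alike in the shared nucleus of the hybrid, where a difference is read as a cis effect. The study names amplification and sequencing biases as able to favour an allele and inflate such a difference, and this was not tested here. Among the 37 members 4 were called, PFK2 with the SK1 allele higher and GPM1, GPD2 and GCR1 with the S96 allele higher. In all tested transcripts 11.6% were called, 4.53% with the SK1 and 7.02% with the S96 allele higher. The median absolute log2 allele ratio was 0.19 over the members and 0.33 over all tested transcripts. Without the fold threshold 9 members passed the FDR, compared with 17.0% of all, the additional ones being HXK2, FBA1, TPI1, TDH3 and ENO2 at folds under 1.5. The direction of the ratio was the same in all 4 libraries for 14 of 37 members and for 33.2% of all tested transcripts.

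GPM1 (YKL152C, chromosome XI, 163480 to 164456, minus strand) had the allele difference with the lowest FDR among the members. Its pairs were 18360 and 23150 from SK1 and 40484 and 60808 from S96 in spore pools A and B, and 12853 and 14346 from SK1 and 30836 and 45201 from S96 in hybrids A and B. The SK1 allele was lower in every library, with corrected log2 allele ratios (SK1 over S96) of -1.03 and -1.28 in the pools and -1.26 and -1.66 in the hybrids. The cis effect was -1.46 (standard error 0.09), a 2.75-fold higher S96 allele, with an FDR of 1.2e-08. The annotated transcript holds a single SNP of the files, at position 164020 and base 366 of the coding sequence, the last base of its codon, although pairs can also be told apart by insertions, deletions and positions not in the SNP files. At this SNP the SK1 allele made up 51.1% of 133 DNA reads in hybrid A and 46.9% of 81 in hybrid B, so that DNA did not show the skew of the RNA. CUT706 overlaps GPM1 on the same strand.

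The SNP of GPM1 in capitals with 20 bases on either side (chrXI:164000-164040 of R64, minus strand) is followed by the bases upstream of the GPM1 transcript start (chrXI:164457-164685, minus strand), where capitals mark a SNP 180 bases before the start codon and a CTTCC, the core to which Gcr1 binds. The files give the position of each SNP, and the reference base is shown.
GPM1 coding SNP: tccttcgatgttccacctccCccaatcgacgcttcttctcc
GPM1 upstream: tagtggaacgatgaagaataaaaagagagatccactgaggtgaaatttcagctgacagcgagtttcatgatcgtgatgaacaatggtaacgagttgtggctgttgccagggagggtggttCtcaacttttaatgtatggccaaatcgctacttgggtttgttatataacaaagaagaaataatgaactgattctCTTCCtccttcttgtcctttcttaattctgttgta
The upstream SNP lies outside the CTTCC, and the data do not test whether either position acts on expression.

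PFK2 (YMR205C, chromosome XIII, 671549 to 674845, minus strand) was the member with a higher SK1 allele. SK1 gave 6211 and 5234 pairs and S96 gave 2060 and 2429 pairs in spore pools A and B, and SK1 gave 4500 and 5253 and S96 1840 and 2624 in hybrids A and B. The corrected log2 ratio was 1.45 and 0.97 in the pools and 1.29 and 1.00 in the hybrids, so that SK1 was higher in every library. The cis effect was 1.15 (standard error 0.17), a fold of 2.21, with an FDR of 2.5e-04. In hybrid DNA the SK1 allele made up 49.9% and 48.2% of the reads over the coding SNPs of PFK2. Its fellow subunit PFK1 was not called, and the share of PFK2 in the summed level of both subunits was 33.8% from SK1 alleles and 17.6% from S96 alleles on average in the hybrids.

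GPD2 (YOL059W, chromosome XV, 217130 to 218714, plus strand) and GCR1 (YPL075W, chromosome XVI, 412155 to 415427, plus strand) had smaller effects. For GPD2 the log2 ratio was -0.47 and -0.14 in spore pools A and B and -0.94 and -0.59 in hybrids A and B, with a cis effect of -0.76 (standard error 0.23, FDR 0.0486). GCR1, the activator of the glycolytic genes, had 0.09 and -0.39 in the pools and -0.69 and -0.75 in the hybrids, with a cis effect of -0.72 (standard error 0.27, FDR 0.134). Over coding SNPs in the DNA of hybrids A and B, the SK1 allele made up 42.9% and 56.0% of reads for GPD2. For GCR1 it made up 50.4% and 42.6%. The log2 ratio of the RNA was lower in both hybrids than in both pools for each gene. Both genes were picked by their hybrid ratio, so this order is partly built in. The change of the ratio from hybrid to pool was called for neither (FDR 0.930 for GPD2 and 0.912 for GCR1). Without hybrid A the cis effect of GPD2 was -0.59 with an FDR of 0.393, and GCR1 was no longer called without hybrid A (FDR 0.354) or without hybrid B (FDR 0.462), while GPM1 and PFK2 stayed called without any single library. With the DNA frequencies of each pool in place of those of spore pool A, GPM1 alone of the 4 was called (FDR 0.169). PFK2 (FDR 0.349), GPD2 (FDR 0.596) and GCR1 (FDR 0.687) were not. The size of a cis effect is set by the hybrids and cannot move under this setting, in which only the estimated spread changes. The GPD2 window of 300 bases before the start codon held no SNP. In PFK2 and GCR1 a SNP lies between the annotated transcript start and the start codon, 67 bases before it in PFK2 and 37 bases before it in GCR1, and is shown in capitals within 29 bases of R64 (chrXIII:674819-674847, minus strand, and chrXVI:412203-412231, plus strand).
PFK2 leader SNP: aagcctttcttataCctcatttgaacaat
GCR1 leader SNP: gcaagtgacaaacgAcggttatatttaat
The shared transcripts of HXK1 and GLK1 also had a higher SK1 allele in the hybrids, with cis effects of 1.30 (standard error 0.35, FDR 0.0259) and 2.16 (standard error 0.51, FDR 0.0122), but that of GLK1 was 1.17 with an FDR of 0.293 without hybrid B, whose ratio of 3.19 stood apart from 1.17 in hybrid A. The cis effect of HXK1 was 1.12 with an FDR of 0.288 with lane 8 alone, and that of GLK1 1.69 with an FDR of 0.216. With the DNA frequencies of each pool neither was called (FDR 0.432 for HXK1 and 0.540 for GLK1).

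**Figure D4:**
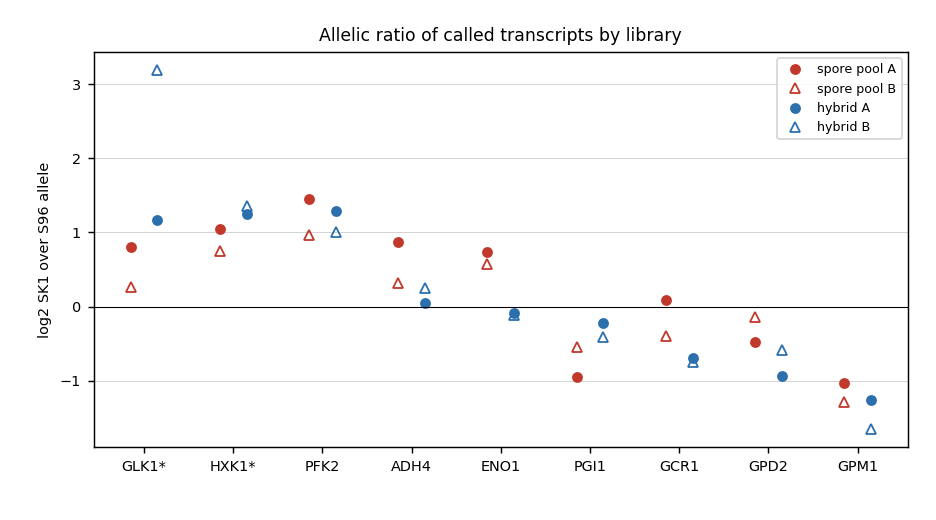
Log2 allele ratio (SK1 over S96) in spore pools A and B, corrected for allele frequency, and in hybrids A and B. Only transcripts called for an allele difference in the hybrids or in the pools are shown, ordered by their mean ratio in the hybrids, with an asterisk for the shared transcripts. GPM1 lies between -1.66 and -1.03 and PFK2 between 0.97 and 1.45 in all 4 libraries.

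In the pools the alleles sit in different cells, and their ratio was corrected for the frequency of each allele in pool DNA. Here 5 of 37 members were called, against 10.2% of all tested transcripts. PFK2 (1.21), ENO1 (0.65) and ADH4 (0.59) had a higher SK1 allele (3.95% of all did) and GPM1 (-1.16) and PGI1 (-0.75) a higher S96 allele (6.26% of all). ENO1 (chromosome VII, 1000890 to 1002402, plus strand) had a log2 ratio of 0.73 and 0.57 in spore pools A and B and -0.09 and -0.11 in hybrids A and B, so the groups did not overlap. PGI1 (chromosome II, 612068 to 613964, minus strand) had -0.95 and -0.55 in the pools and -0.22 and -0.41 in the hybrids, and ADH4 had 0.87 and 0.32 in the pools and 0.05 and 0.26 in the hybrids. With these ratios pools and hybrids did not overlap for either gene, and the share of all tested transcripts that split in this way was not computed. Both pools were corrected with the SK1 frequency of spore pool A, which was 46.0% at ADH4. The sparser DNA of spore pool B gave 61.0% there, so the ratio of ADH4 in spore pool B depends on this choice. ENO1, PGI1 and ADH4 were picked by their pool ratio, so a hybrid ratio nearer to 0 is partly built in. The change of the ratio from hybrid to pool was called for none of them (FDR 0.859 for ENO1, 0.909 for PGI1 and 0.936 for ADH4). Without spore pool A, only PFK2 (0.97) and GPM1 (-1.28) of the 5 were called, without spore pool B ENO1 was not (FDR 0.366), and with each pool's own DNA frequency none was.

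The change of the allele ratio from hybrid to pool, the local trans effect, was called for 0 of 37 members, with 0.164% of all tested transcripts called. An unadjusted p under 0.05 was found for 5 members, compared with 5.74% of all, and DESeq2 without a prior called 0 members as well. The lowest FDR among the members was 0.701, for ENO2, with a log2 allele ratio of -0.03 and -0.16 in spore pools A and B and 0.12 and 0.51 in hybrids A and B and an effect of -0.41 (standard error 0.15). ENO1 had an effect of 0.75 in the opposite direction (standard error 0.35, FDR 0.859). GPD1 had 0.80 and 0.37 in the pools and -1.42 and -0.69 in the hybrids, an effect of 1.64 (standard error 0.69, FDR 0.789) that rests on 419 and 317 pairs in the hybrids. Over its coding SNPs the SK1 allele made up 34.8% of 600 DNA reads in hybrid A and 57.4% of 338 in hybrid B. The allele ratios of GPD1 split by group, as did those of both enolases and of other members such as HXK2, TDH1 and ADH3. The share of all tested transcripts that split in this way was not computed, so a split is not read as a result. For GPM1 the effect was 0.30 (FDR 0.797), for PFK2 0.06 (FDR 0.993) and for ADH3 -0.29 (FDR 0.823). At this depth and with 2 libraries a group, effects of these sizes did not pass the adjustment.

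Allele frequencies in the pools differed from parity at some members, which sets how much correction enters. The smoothed SK1 frequency in the DNA of spore pool A was 75.8% at PGK1 on chromosome III and 73.9% at PFK27 on chromosome XV, 58.5% at the shared transcript of GLK1 and 59.5% at ADH1. In the sparser DNA of spore pool B it was 88.5% at PGK1 and 81.0% at PFK27. The pools also differed at PDC2 (45.5% in A and 73.3% in B), ENO2 (50.0% and 67.9%) and TPI1 (47.9% and 30.0%). The frequencies of spore pool A, used for both, may therefore not suit spore pool B. Without the correction PFK27, PGK1 and ADH1 were called as local trans effects and with it none was.

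The bases before the start codons were searched for motifs on both strands in windows of 300 bases of R64, for all 39 names and for 6001 coding genes. CTTCC, the Gcr1 core, was found in 22 of the 39 windows (56.4%) and in 45.5% of all windows. CACCCA, part of the Rap1 site, was found in 2 (5.13%, against 7.07% of all), at HXK1 and GCR1, and CACGTG in 2 (5.13%, against 3.57% of all), at TDH1 and PYK2. A match is a string of letters and not a site shown to be bound. SNPs were spread thinly in these windows, with a median of 1 per window and none in 9 of 39 (23.1%), compared with a median of 2 and none in 23.5% of all windows. Of the 42 matches 2 held a SNP, both CTTCC, at EMI2 and GPD1.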

How the data were processed

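Of the deposited files, the RNA table gives counts, as whole numbers and not normalized, of the pairs that match only SK1 or only S96, by transcript and lane. The authors mapped the pairs to both genomes with GSNAP and counted with HTSeq 0.5.4p5, from strand-specific libraries, keeping pairs that lay wholly inside a transcript extended at both ends. The deposited DNA files give read counts of either allele at each SNP, reused by the authors from previous work and lifted to R64. The files name neither allele column. The second was taken as SK1 because its share followed the RNA allele ratio. The annotation names no build, and transcript positions are printed as listed; 4 member transcripts (FBA1, PDC6 and both of PCK1) do not contain their R64 coding region. SNP positions were taken as the coordinate that put 66.0% of coding SNPs on the last base of a codon (17.1% for the other).

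The 3 lanes were summed here. A transcript was tested if both alleles had at least 1 read and its corrected counts averaged 10 or more. SK1 frequencies were smoothed with locfit 1.5.9.12 (28000 bp window, SNPs of 10 reads or more), corrected for the mean mapping bias of the hybrids (1.87 percentage points), and both pools took the frequencies of spore pool A, as DNA of spore pool B covers only 10355 SNPs. Total expression was tested with edgeR 4.0.16 (TMM, quasi-likelihood, R 4.3.3) between groups. Allele columns were fitted with library, cis and local trans terms and the log allele frequency as an offset. Calls needed a Benjamini-Hochberg FDR under 0.2 and a fold above 1.5. The edgeR model was used in place of the DESeq2 model of the study, and DESeq2 1.42.0 was an alternative. The fits were tested on simulated data. Members and lists were chosen with earlier results of these data known. Every member is given. Neighbouring genes were named where called in pools over hybrids, and ICL1, ALD4 and the markers and neighbours not called were named after their values were seen. Intervals were not computed, since 2 libraries per group limit precision more than counting does. Sequences are from RefSeq's R64, read with Biopython 1.88.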

Additional observations from a re-analysis of the deposited data

How the results depend on the processing

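In pools over hybrids, 1 member was called, TDH1, and its log2 ratio stayed between 1.25 and 1.68 in every setting. Members called were 5 with DESeq2 without a prior (TDH1, PYK2, ADH4, ADH5 and GPD1, with 261 against 76 calls over all transcripts), 0 at an FDR under 0.05, 0 with lane 8 only and 0 to 8 with single libraries left out. Lanes 6 and 7 alone also called 1, but this was HXK2. Cis calls, 4 members, were 9 without a fold threshold, 2 with lanes 6 and 7 only and 1 with the own DNA frequency of each pool (74 against 775 over all). Local trans calls, 0, were 3 without correction for allele frequency (171 against 11 over all). Pool allele calls, 5, were 3 at an FDR under 0.05, 8 without a fold threshold, 8 without correction, 0 with own DNA (48 against 685 over all), 3 with lanes 6 and 7 only, 3 with lane 8 only and 2 to 6 with libraries left out. Calls over all transcripts also moved at an FDR under 0.05 (pools over hybrids 35, cis 442, local trans 6, pool alleles 387), for local trans effects with DESeq2 (56), no count filter (7) or own DNA (0), for pool alleles without a fold threshold (1059), and with lane 8 only (40 in pools over hybrids, 446 for pool alleles). With libraries left out they reached 41 to 870 in pools over hybrids, 48 for local trans effects without hybrid A, where the shared transcript of GLK1 was called, and 412 for pool alleles without spore pool A. The lane settings and the own DNA frequency for cis effects were added after the data were seen. No member called in a comparison changed direction in it under any setting. The cause of these shifts was not tested.

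The letters A and B were not taken to pair libraries, as deviations of same-lettered libraries had a correlation of 0.01 in expression and 0.00 in the allele ratio, although the share of pairs outside transcripts was higher in both A libraries. With the replicate block, 3 members were called in pools over hybrids (TDH1, ADH5 and GPD1, with 115 calls over all), and local trans calls over all were 53.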

Other observations

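Among further genes around the pathway, the list of the pentose phosphate pathway, which branches from glucose-6-phosphate, had 0 of 8 transcripts called between spore pools and hybrids, with a median log2 ratio of -0.07. The list of glucose signalling had 0 of 6 called and a median of -0.21. In the hybrids, MIG1, the repressor of glucose-repressed genes, had a higher SK1 allele, with log2 ratios of 1.33 and 1.14 in spore pools A and B and 0.74 and 0.84 in hybrids A and B and a cis effect of 0.79 (standard error 0.21, FDR 0.0258). PYC1, a pyruvate carboxylase that feeds gluconeogenesis, had a higher S96 allele, with -0.60 and -0.55 in the pools and -0.51 and -0.97 in the hybrids and a cis effect of -0.74 (standard error 0.18, FDR 0.0145). ALD2, a cytosolic aldehyde dehydrogenase, had a higher SK1 allele at 1.06 (standard error 0.32, FDR 0.0504), and GUT1, the glycerol kinase, a higher S96 allele at -0.75 (standard error 0.27, FDR 0.118). ALD4, the mitochondrial aldehyde dehydrogenase, had levels of 27.05 and 59.6 in the pools and 15.8 and 18.9 in the hybrids and was not called (log2 ratio 1.32, FDR 0.217). MIG1 and PYC1 were not called without hybrid B (FDR 0.257 and 0.394), nor ALD2 and GUT1 without hybrid A (FDR 0.292 and 0.795, with GUT1 at -0.27). ALD4 and these genes with allele differences were named after their values were seen.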
